A study of Mus musculus with 12 samples.

Results

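The hypoxia-inducible factor (HIF) pathway was examined in mouse lung tumors through 32 genes, 9 of the oxygen-sensing machinery and 23 targets, matched by symbol in a table of 39017 genes. All 32 were found, and all 32 passed the low-count filter that left 16527 genes for testing. RNA was sequenced from the CD45-negative fraction, the cells left after magnetic removal of immune cells, of 12 tumors in 4 groups of 3. All mice were C57BL/6 and carried *p53* Fl/Fl alleles and a CCSP-rtTA transgene, in which the promoter of a club cell gene drives the doxycycline-dependent activator. All received 6000 viral units of Lenti.TRE-PPARaD13_PGK-Cre in the airways, a vector that gives Cre to start tumors and holds PPARαΔ13, a dominant negative PPARα, behind a doxycycline-responsive promoter. KP and KPG1 mice ate a regular diet, and KP-PPARαΔ13 and KPG1-PPARαΔ13 mice chow with doxycycline (625 mg/kg) over 15 days until the end point at 26 weeks, so the diet and the transgene cannot be told apart. KPG1 and KPG1-PPARαΔ13 mice had in addition Glut1 (*Slc2a1*) Fl/Fl alleles. By a number in the labels read as the mouse, the 3 tumors came from 2 KP, 3 KP-PPARαΔ13, 2 KPG1 and 2 KPG1-PPARαΔ13 mice, and the tests over tumors treat those of 1 mouse as independent. The 3 KP tumors were all female and the 3 KPG1 tumors all male, so that sex and genotype cannot be told apart in that comparison. The other groups had both sexes, with 2 male tumors in KP-PPARαΔ13 and 1 in KPG1-PPARαΔ13.

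HIF is a pair of proteins, an oxygen-labile α subunit (HIF-1α or HIF-2α) and the stable partner ARNT. In oxygen, prolyl hydroxylases (the *Egln* genes) mark the α subunit for VHL, which sends it to degradation, and the hydroxylase encoded by *Hif1an* blocks its transcriptional activity. When oxygen is low the pair binds short DNA elements beside genes of glycolysis, acid export, vessel growth, collagen maturation and mitophagy, and also beside *Egln3*, which closes a feedback loop. Since the α subunits are controlled mainly as proteins, their RNA levels do not report HIF activity, and the RNA of the targets is the usual readout.

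The core of the hypoxia response element was searched as ACGTG or GCGTG on both strands, so that CACGTG counts as 2 matches, in the 250 bases before each transcription start in RefSeq (GRCm38.p6). Of the 26 genes with an entry, 23 (88.5%) held at least 1 core in a window, against 41.5% of the 27025 genes in the whole table. By window the share was 25 of 33 (75.8%) against 38.6% of 32851. At least 3 cores in 1 window were found in 8 of the 26 genes, against 7.54% of all genes. The whole table was not limited to the genes tested here or matched for the CG pair that both cores contain. These shares therefore do not compare like promoters. The 4 sequences here were picked from the genes with an entry whose values are given in the comparisons, and run 5′ to 3′ on the strand of the gene with the cores in capitals.
Bnip3: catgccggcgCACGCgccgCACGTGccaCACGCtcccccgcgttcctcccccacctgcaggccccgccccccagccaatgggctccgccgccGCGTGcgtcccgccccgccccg
Fam162a: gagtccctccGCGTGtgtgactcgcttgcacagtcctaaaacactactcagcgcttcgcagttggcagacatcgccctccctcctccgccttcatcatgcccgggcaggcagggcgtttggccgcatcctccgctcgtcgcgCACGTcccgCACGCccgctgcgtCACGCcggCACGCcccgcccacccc
Car9: atttccgatgCACGTacagcccgtccac
Ddit4: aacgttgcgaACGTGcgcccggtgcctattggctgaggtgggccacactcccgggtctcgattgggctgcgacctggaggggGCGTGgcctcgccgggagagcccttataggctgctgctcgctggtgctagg
The *Bnip3* stretch (chr7:138909520-138909633, minus strand) holds 5 cores in 4 runs, *Fam162a* (chr16:36071595-36071784, minus strand) 5, *Car9* (chr4:43506998-43507025, plus strand) 1 and *Ddit4* (chr10:59951835-59951967, minus strand) 2. In *Fam162a*, 1 further core of its window lies in the 33 bases left out at the end, because GENCODE M21 places its first exon there. The *Car9* stretch ends at the RefSeq start and lies inside the gene as GENCODE M21 draws it. A match describes these letters only, and binding was not measured.

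The labels and the tumors were checked first. *Ppara*, which can also collect reads of the transgene, had 15.7, 10.5 and 9.54 CPM (reads of the gene relative to the TMM-scaled library size) in the KP tumors and 2.71, 64.6 and 246.1 CPM in the tumors labelled KP-PPARαΔ13. The library labelled KP-PPARαΔ13 replicate 1 thus lay below all KP tumors, against its label. That group is therefore named as labelled. Log2 fold changes without replicate 1 are given for the pathway genes whose fold changes come from its comparisons, but not for the marker gene *Hba-a2*. In KPG1 the values were 7.24, 10.5 and 15.3 CPM, and in the tumors labelled KPG1-PPARαΔ13 they were 8.90, 19.2 and 17.7 CPM, so the groups overlapped. *Slc2a1*, itself a HIF target, had 41.7, 35.3 and 57.7 CPM in KP and 30.2, 64.0 and 39.9 CPM in KPG1, which overlap, and 23.7, 53.2 and 54.5 CPM in KPG1-PPARαΔ13. Reads outside the floxed part of the gene can enter this count, so it is no check of the deletion.

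Epithelial and AT2 markers, the surfactant genes of the alveolar cells from which such tumors can arise, were above 0 in all tumors for all 5 and all 6 genes listed. The 6 leukocyte markers, 5 of them above 0 in every tumor, summed to between 33.4 CPM and 77.4 CPM, with *Cd68* as the most abundant gene. The 7 endothelial markers were above 0 in every tumor and were led by *Vwf*. Their sums were 456.9, 224.5 and 362.3 CPM in KP, 138.6, 227.3 and 746.6 CPM in KP-PPARαΔ13, in KPG1 445.7, 175.1 and 400.1 CPM, and 222.1, 169.4 and 251.4 CPM in KPG1-PPARαΔ13. KP-PPARαΔ13 replicate 3 therefore held more endothelial RNA than any other tumor, and replicate 1 of the same group held the least. In bulk RNA, fewer cells of a type and less RNA per cell cannot be told apart. KP replicate 2 stood apart by AT1 markers, with a sum of 177.4 CPM against at least 596.3 CPM in the others.

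Total counts ran from 25263794 to 32654223 per tumor. Tumors of a group were clearly separate libraries: the chi-square between the counts of a pair, divided by its degrees of freedom, was 87.1 to 314.1. Nothing beyond that number in the labels says that replicates are separate animals. The chi-square sets tumors against counting noise over all genes, so it does not give the precision for single genes of the 32. The fewest reads were those of *Stc2* and *Car12*, 519 and 606 over all 12 tumors.

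Levels were compared between genes as CPM per kilobase of exon, averaged over the 12 tumors. *Vegfa*, which encodes the main growth factor of vessels, came first with 102.3 ± 31.3 (SD, n = 12), followed by *Fam162a*, a mitochondrial protein gene, with 90.1 ± 40.5 and *Bnip3*, a mitophagy receptor gene, with 73.3 ± 17.3. The SDs of these neighbors exceed the gaps between them. *Epas1*, which encodes HIF-2α, had 71.3 ± 30.8 and *Hif1a*, which encodes HIF-1α, 46.3 ± 11.9 CPM per kilobase. The classical hypoxia marker *Car9*, which encodes a surface carbonic anhydrase, had only 4.04 ± 5.13 CPM per kilobase. The lowest were *Lox* (0.712 ± 0.313), which encodes a collagen cross-linking enzyme, *Stc2* (0.279 ± 0.178) and *Car12* (0.218 ± 0.285).

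Spread across tumors differed widely among the genes. For 4 genes the highest tumor was under 2 times the lowest, *Vhl* with 1.59 times being the steadiest, and for 12 genes it was over 4 times. *Car9* covered a range of 64.8 times, *Car12* 30.2 times, *Plod2*, a collagen lysyl hydroxylase gene, 15.9 times, and *Egln3* 11.6 times. The median SD of log2 CPM was 0.46 over the 32 genes and 0.45 over all genes tested, so the spread of the set was close to that of other genes. The extremes lay in few tumors. KP-PPARαΔ13 replicate 3 was lowest for 9 of the 32 genes and KPG1-PPARαΔ13 replicate 1 for 8, while KP-PPARαΔ13 replicate 1 and KPG1 replicate 2 were highest for 7 each.

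**Figure D1:**
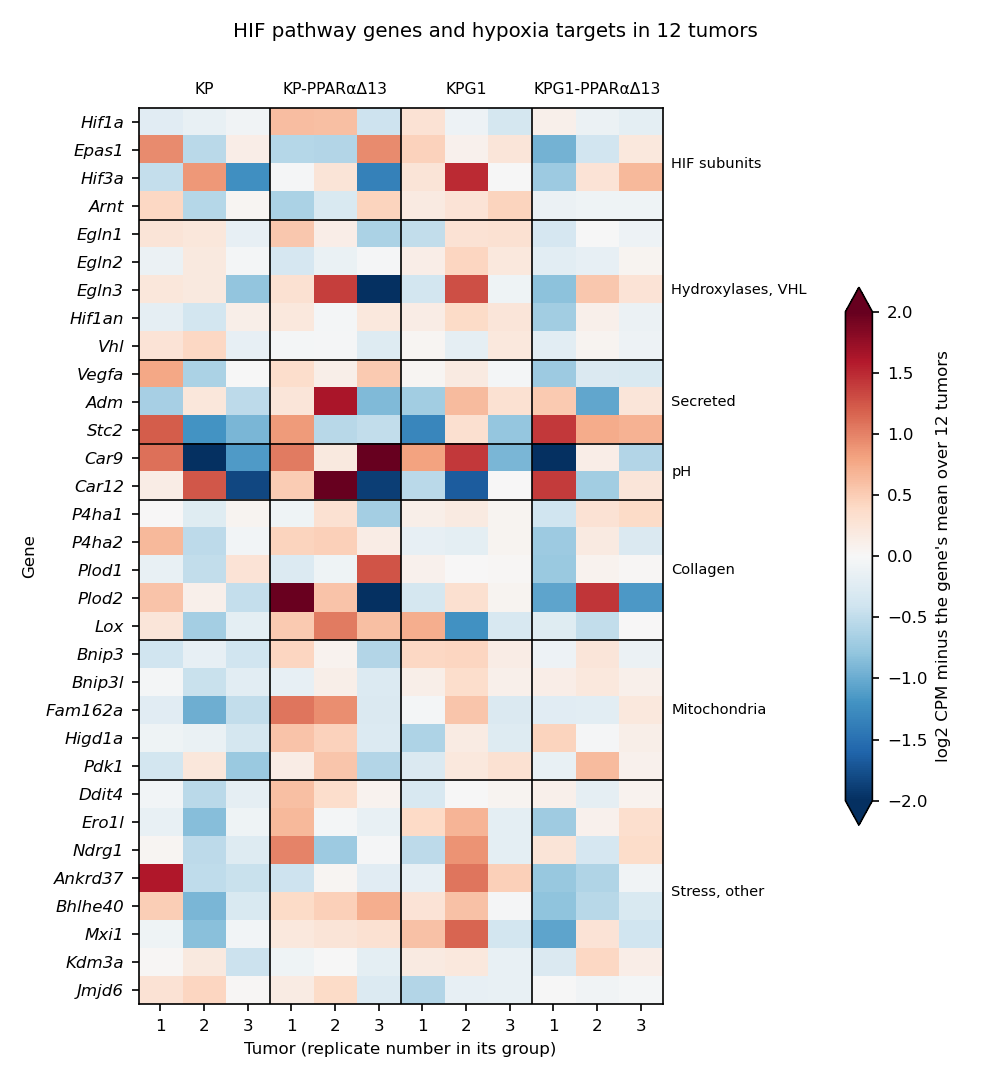
Columns are the 12 tumors by group and replicate number, rows the 32 genes by role, and color gives log2 CPM minus the gene's mean over the tumors. KP-PPARαΔ13 replicate 3 differs from replicates 1 and 2 in *Hif1a*, *Epas1*, *Egln3* and *Plod2*, and KPG1-PPARαΔ13 replicate 1 is the lowest of all tumors in 8 genes.

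Among the α subunits, *Hif1a* (chr12:73901375-73947530, plus strand, mm10) had 227.8, 239.3 and 253.7 CPM in KP, 407.8, 404.6 and 199.0 CPM in KP-PPARαΔ13, in KPG1 324.0, 247.1 and 209.3 CPM, and 284.7, 245.8 and 232.5 CPM in KPG1-PPARαΔ13. KP-PPARαΔ13 replicates 1 and 2 were the highest of all tumors and replicate 3 the lowest of all. *Epas1* (chr17:86753700-86833410, plus strand) showed the mirror image in that group, with 246.3, 244.3 and 704.8 CPM. Its other values were 704.0, 251.8 and 402.7 CPM in KP, 507.4, 389.1 and 433.9 CPM in KPG1, and 191.0, 280.5 and 425.4 CPM in KPG1-PPARαΔ13, and all groups overlapped. *Arnt* ranged from 76.5 to 162.4 CPM. *Hif3a*, whose product can restrain the other α subunits, ranged from 15.2 to 109.3 CPM.

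Of the genes that switch HIF off, *Vhl* ranged from 31.0 to 49.2 CPM, *Egln2* from 42.3 to 72.4 CPM and *Egln1*, which encodes the main oxygen sensor PHD2, from 64.0 to 143.5 CPM. *Egln3*, the hydroxylase gene that HIF itself induces, had 44.8, 95 and 8.17 CPM in KP-PPARαΔ13, so this group alone held both the highest and the lowest of the 12 tumors. *Hif1an* was 61.2 CPM in KPG1-PPARαΔ13 replicate 1 and 76.6 to 128.6 CPM in the other 11 tumors.

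The targets that act outside the cell ran from abundant to scarce. *Vegfa* lay between 254.6 and 716.2 CPM, with the highest value in KP replicate 1. *Adm*, which encodes the vasodilator peptide adrenomedullin, lay between 1.505 and 9.55 CPM, and *Stc2*, a secreted glycoprotein gene, between 0.48 and 3.14 CPM. *Car12*, a second surface carbonic anhydrase gene, ran from 0.268 CPM in KP-PPARαΔ13 replicate 3 to 8.10 CPM in replicate 2 of that group.

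Enzymes of collagen maturation differed in how widely they ranged across the tumors. The prolyl 4-hydroxylase genes *P4ha1* and *P4ha2* ran from 106.7 to 223.7 CPM and from 51.9 to 133.2 CPM. *Plod2* had 101.2, 38.2 and 6.36 CPM in KP-PPARαΔ13, again the highest and the lowest of all tumors in 1 group. Its relative *Plod1* was highest, at 75.8 CPM, in the tumor where *Plod2* was lowest, KP-PPARαΔ13 replicate 3. *Lox* lay between 1.34 and 6.36 CPM.

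Of the targets that act on mitochondria and metabolism, *Pdk1*, the kinase gene that keeps pyruvate out of the citric acid cycle, ran from 79.7 to 207.9 CPM. Among the stress and feedback targets, *Kdm3a*, a histone demethylase gene, was among the steadiest with 262.3 to 469.6 CPM. *Ndrg1*, a stress-response gene, ran from 214.7 to 709.0 CPM, with both ends in KP-PPARαΔ13. *Ero1l*, an oxidase gene of the endoplasmic reticulum, ran from 75.8 to 218.5 CPM. None of *Adm*, *Car12*, *P4ha1*, *P4ha2*, *Plod1*, *Plod2*, *Pdk1*, *Kdm3a*, *Ndrg1* or *Ero1l* separated the diets in either genotype, since the groups overlapped for each.

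The first question is what doxycycline changed in tumors with intact *Slc2a1* alleles. Differences were tested for all genes with edgeR's quasi-likelihood test, all 12 tumors sharing one model, at a Benjamini-Hochberg adjusted p of 0.05 over 16527 genes. In the tumors labelled KP-PPARαΔ13 against KP, 0 of the 32 genes passed, where 0.00605% of all genes did. DESeq2 also called 0 of the 32, against 2.25% of all genes. At an unadjusted p under 0.05 edgeR counted 2 of the 32, both higher, against 11.4% of all genes, so single genes passed no more often than the background. The median log2 fold change was 0.35 over the 32 genes, 21 of them above 0, and -0.01 over all genes tested, 8133 of 16527 above 0. Without KP-PPARαΔ13 replicate 1, whose *Ppara* goes against its label, the median was 0.20, and without replicate 3 it was 0.44. With sex as a covariate it was 0.17.

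The gene with the smallest p was *Fam162a* (chr16:36043761-36071594, minus strand), the HIF-1 target named above. It had 60.4, 35.7 and 50.3 CPM in KP and 147.5, 134.6 and 57.4 CPM in KP-PPARαΔ13. Replicates 1 and 2 of the latter lay far above every KP tumor, while replicate 3 lay among them. The log2 fold change was 1.21 ± 0.35 (standard error; edgeR, adjusted p = 0.308). It was 0.98 without replicate 1 and 1.53 without replicate 3 of KP-PPARαΔ13. DESeq2 gave an adjusted p of 0.0532.

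*Ddit4* (chr10:59949669-59951834, minus strand) encodes REDD1, an inhibitor of mTORC1 made under hypoxia and other stress. It had 61.7, 44.1 and 56.2 CPM in KP and 97.1, 81.3 and 66.6 CPM in KP-PPARαΔ13, with no overlap. The log2 fold change was 0.60 ± 0.20 (edgeR, adjusted p = 0.334), and 0.45 without replicate 1. *Bhlhe40* (chr6:108660629-108666925, plus strand), a circadian and hypoxia-induced repressor gene, had 395.8, 149.7 and 228.0 CPM in KP and 368.3, 392.6 and 466.0 CPM in KP-PPARαΔ13. KP replicate 1 lay inside the range of the tumors labelled KP-PPARαΔ13, and the log2 fold change was 0.67 ± 0.31 (edgeR, adjusted p = 0.459). It was 1.12 without KP replicate 1 and 0.39 without KP replicate 2, so single control tumors decide much of the value, and 0.74 without KP-PPARαΔ13 replicate 1.

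In all, 3 of the 32 genes did not overlap between KP and KP-PPARαΔ13, against 13.3% of all genes tested. They were *Ddit4*, *Lox* (log2 fold change 0.90; edgeR, adjusted p = 0.508) and *Mxi1*, a MYC antagonist gene (0.54; edgeR, adjusted p = 0.654), all with the 3 tumors labelled KP-PPARαΔ13 higher. *Lox* was at 1.00 and *Mxi1* at 0.56 without KP-PPARαΔ13 replicate 1. Without KP-PPARαΔ13 replicate 3, 13 of the 32 (40.6%) did not overlap, against 27.9% of all genes, and without replicate 1 it was 3 (9.38%) against 21.4%.

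**Figure D2:**
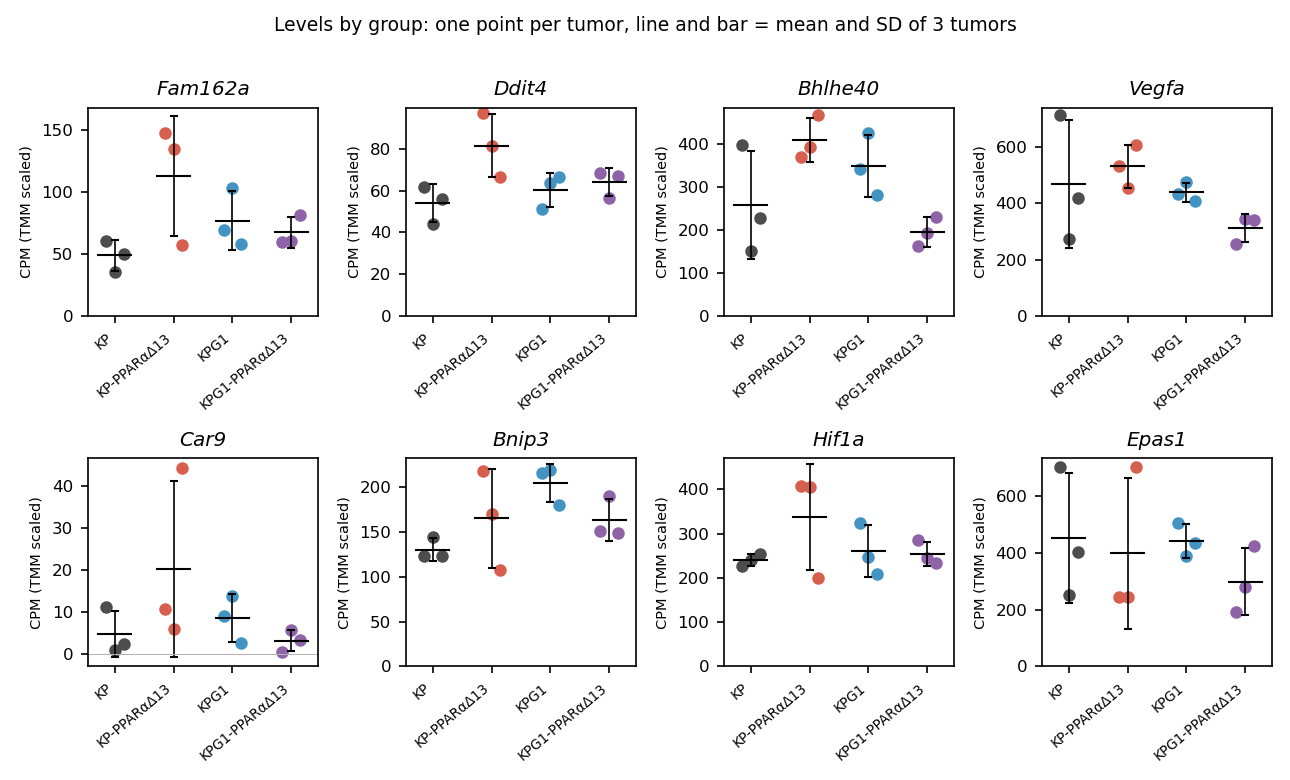
Each panel gives 1 gene in TMM-scaled CPM, with a point per tumor and the mean and SD of the 3 tumors of each group. *Bhlhe40*, *Vegfa* and *Car9* are lower in all KPG1-PPARαΔ13 than in all KP-PPARαΔ13 tumors, *Bnip3* is higher in all KPG1 than in all KP tumors, and *Hif1a* and *Epas1* split the KP-PPARαΔ13 tumors in opposite directions.

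Other genes of the pathway gave a wider picture of this comparison. Of 20 targets in glucose uptake and glycolysis, 18 had a log2 fold change above 0, with a median of 0.64. No gene of this list passed the adjusted threshold in edgeR. At an unadjusted p under 0.05 there were 8, all higher in KP-PPARαΔ13, against 11.4% of all genes. DESeq2, which called 2.25% of all genes, called 1, *Slc2a1*. *Slc2a1* had 152.5, 115.1 and 108.1 CPM in KP-PPARαΔ13, more than every KP tumor, a log2 fold change of 1.48 ± 0.36 (edgeR, adjusted p = 0.289; DESeq2, adjusted p = 0.011). *Pkm*, the pyruvate kinase gene, had a log2 fold change of 1.16 ± 0.35 (edgeR, adjusted p = 0.323) and *Pgam1*, a phosphoglycerate mutase gene, one of 1.44 ± 0.44 (edgeR, adjusted p = 0.324). These 3 genes were at 1.31, 0.82 and 0.88 without KP-PPARαΔ13 replicate 1. The list median was 0.51 without that replicate and 0.77 without replicate 3. Without replicate 1, 4 of the 20 genes had an unadjusted p under 0.05, against 1470 of all 16949 genes.

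Counts of several glycolytic genes can be split with near-identical pseudogenes. In GENCODE M21, *Gapdh* matched 90 such pseudogenes, *Pgk1* 4, *Eno1* 3, *Ldha* 2, and *Gpi1*, *Tpi1*, *Pgam1* and *Pkm* 1 each. Of the 32 genes, *Bnip3* matched 3 and *Bnip3l* and *Higd1a* 1 each, so their levels are uncertain by the reads those copies may take.

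Of 26 further HIF targets, 25 were tested, and 16 had a log2 fold change above 0. None passed the adjusted threshold in edgeR, and 4 higher and 1 lower had an unadjusted p under 0.05, against 11.4% of all genes. DESeq2 called *Loxl2* and *Stc1*, against 2.25% of all genes. *Loxl2*, a collagen and elastin cross-linking gene, was 2.09 ± 0.57 higher on the log2 scale (edgeR, adjusted p = 0.305). *Stc1*, a stanniocalcin gene, was 1.61 ± 0.49 higher (edgeR, adjusted p = 0.319). *Angptl4*, a lipase inhibitor gene that PPARs also control, was 1.55 ± 0.53 higher (edgeR, adjusted p = 0.335). All 3 had no overlap between the groups, and without KP-PPARαΔ13 replicate 1 they were at 1.97, 1.17 and 1.60.

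Of 10 genes of the VEGF and angiopoietin system, 9 were above 0. Against 11.4% of all genes, 1 had an unadjusted p under 0.05. This was *Pgf*, placental growth factor, with 1.51, 0.667 and 2.85 CPM in KP and 5.55, 6.10 and 3.85 CPM in KP-PPARαΔ13 (log2 fold change 1.62 ± 0.54; edgeR, adjusted p = 0.328), at 1.57 without replicate 1. Of 12 regulators of HIF, 6 were above 0, and *Elob*, a partner of VHL in its ligase, had the smallest p (log2 fold change 0.58; edgeR, adjusted p = 0.417), at 0.61 without replicate 1. *Elob* matched 3 near-identical pseudogenes and *Loxl2* 2.

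The sums of fibroblast and blood markers were also higher in KP-PPARαΔ13 than in KP. The 6 fibroblast markers, led by *Col1a2*, summed to 132.7, 112.6 and 241.4 CPM in KP and to 410.3, 529.1 and 265.9 CPM in KP-PPARαΔ13, with no overlap. Of them 5 of 6 were above 0, with a median log2 fold change of 1.17. The 5 erythroid markers, led by the globin gene *Hbb-bs*, summed to 583.1, 319.1 and 764.7 CPM in KP and to 1320, 849.9 and 903.5 CPM in KP-PPARαΔ13, with a median of 1.47 and 4 of 5 above 0. None of either list was at 0 in all tumors, and their part in the results was not tested. All 5 AT1 markers were above 0 and 5 of 6 AT2 markers below 0, with medians of 0.33 and -0.47. Of the club and ciliated cell markers 4 of 5 were below 0 and of the epithelial markers 4 of 5 above 0, with medians of -0.45 and 0.44.

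In KPG1-PPARαΔ13 against KPG1, the same question in tumors with floxed *Slc2a1* alleles, 0 of the 32 genes passed in edgeR, where 0.00605% of all genes did, and 0 in DESeq2, against 1.19%. With an unadjusted p under 0.05 there was 1, lower, against 10.8% of all genes. The median log2 fold change of the 32 genes was -0.18, with 23 below 0, while over all genes it was 0.02 with 7903 of 16527 below 0. The median was -0.12 without KPG1-PPARαΔ13 replicate 1, the tumor with the lowest value of 8 genes. The gene past that level was *Bhlhe40*, with 340.9, 424.2 and 279.5 CPM in KPG1 and 162.3, 191.7 and 229.8 CPM in KPG1-PPARαΔ13. Its groups did not overlap, and the log2 fold change was -0.84 ± 0.32 (edgeR, adjusted p = 0.42). *Mxi1* had 34.9, 52.0 and 18.1 CPM against 11.2, 28.2 and 17.6 CPM (log2 fold change -0.88 ± 0.40; edgeR, adjusted p = 0.468), a value of -0.51 without KPG1 replicate 2. *Hif1an*, whose product hydroxylates HIF-α on asparagine, had 109.3, 128.6 and 117.4 CPM against 61.2, 106.6 and 91.1 CPM (log2 fold change -0.46 ± 0.22; edgeR, adjusted p = 0.478). Without KPG1-PPARαΔ13 replicate 1 the *Hif1an* value was -0.26. The KPG1 tumors were all male, and with sex as a covariate *Hif1an* was at -0.23 and *Bhlhe40* at -0.82.

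The groups did not overlap for 7 of the 32 genes, 5 lower and 2 higher, against 20.6% of all genes. The lower ones were *Bhlhe40*, *Hif1an*, *Egln2*, *Vegfa* and *Arnt*, and the higher ones *Stc2* and *Jmjd6*. *Vegfa* had 433.1, 476.5 and 409.0 CPM in KPG1 and 254.6, 342.7 and 340.8 CPM in KPG1-PPARαΔ13 (log2 fold change -0.49; edgeR, adjusted p = 0.58). Beside these values, all 7 endothelial, all 6 AT2 and all 5 AT1 markers were lower in KPG1-PPARαΔ13, with median log2 fold changes of -0.67, -0.89 and -1.27. Of the 5 erythroid markers 4 were above 0, with a median of 0.76. The globin gene *Hba-a2* was the single gene that edgeR called in this comparison, with 0.24, 0.103 and 0.529 CPM in KPG1 and 122.0, 29.1 and 37.1 CPM in KPG1-PPARαΔ13 (log2 fold change 7.72 ± 0.78; edgeR, adjusted p = 0.0105). Its near-identical copy *Hba-a1* was at 0.53 ± 0.62 (edgeR, adjusted p = 0.78), so how reads were split between them is uncertain. The part of these markers in the result was not tested.

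None of the other pathway lists had a gene past the adjusted threshold here, in edgeR or DESeq2. Of the glycolytic targets 12 of 20 were below 0, and *Ldha*, the lactate dehydrogenase gene, had the smallest p (log2 fold change -0.54; edgeR, adjusted p = 0.48). Of the 25 further targets tested 13 were below 0, led by *Ppp1r3c*, a glycogen-targeting subunit gene (log2 fold change -1.03; edgeR, adjusted p = 0.42). Of the VEGF and angiopoietin system 8 of 10 were below 0. Of the 12 regulators 5 were below 0, and *Arnt2*, a paralog of *Arnt*, had the smallest p with a log2 fold change of 4.62 (edgeR, adjusted p = 0.42). That value came from KPG1-PPARαΔ13 replicate 1, with 14.7 CPM against 1.25 and 0.0308 CPM in the other tumors of its group.

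**Figure D3:**
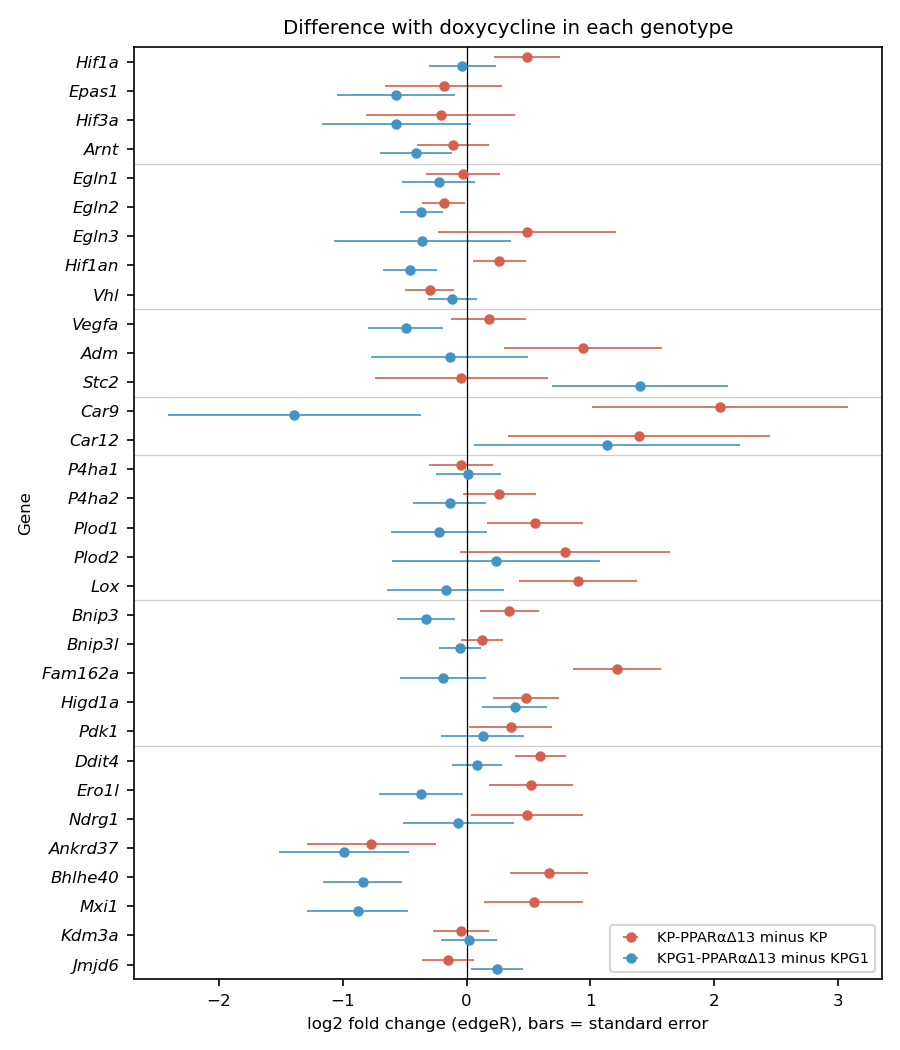
Points are log2 fold changes with doxycycline for the 32 genes and bars are standard errors, from 1 edgeR fit, in red for KP-PPARαΔ13 minus KP and in blue for KPG1-PPARαΔ13 minus KPG1. In 27 of the 32 genes the blue value lies left of the red one, and *Car9*, *Bhlhe40*, *Fam162a* and *Mxi1* have the widest gaps among genes with an unadjusted p under 0.05 for the difference.

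Whether doxycycline acted differently in tumors with intact and with floxed *Slc2a1* was tested as an interaction, the log2 fold change in KPG1 minus that in KP. It was below 0 in 27 of the 32 genes, with a median of -0.46, and in 7979 of all 16527 genes, with a median of 0.03. The median of the 32 lay between -0.67 and -0.33 when any 1 tumor was left out, at -0.37 without the tumor whose *Ppara* goes against its label, and was -0.33 with sex as a covariate. None of the 32 genes passed the adjusted threshold in edgeR, as none of all genes did (0%), and DESeq2 called 0 of the 32, against 1.73% of all genes. With an unadjusted p under 0.05 there were 5 of 32, all below 0, against 11.8% of all genes. Each endothelial, AT2 and AT1 marker listed was also below 0, with medians of -0.75, -0.67 and -1.60, and 5 of 6 fibroblast markers, with a median of -1.31, while 4 of 5 club and ciliated cell markers were above 0, with a median of 1.00. Their part in the result was not tested.

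*Bhlhe40* had the smallest p, with an interaction of -1.51 ± 0.45 (edgeR, adjusted p = 0.335). It stood at 0.67 in KP and -0.84 in KPG1, and leaving out any 1 tumor gave -1.96 to -1.23. *Fam162a* followed with -1.40 ± 0.50 (edgeR, adjusted p = 0.359), *Mxi1* with -1.42 ± 0.57 (edgeR, adjusted p = 0.393) and *Hif1an* with -0.72 ± 0.30 (edgeR, adjusted p = 0.404). With sex as a covariate *Mxi1* was -0.85 and *Hif1an* -0.24, while *Bhlhe40* was -1.47 and *Fam162a* -1.80. Without KP-PPARαΔ13 replicate 1, *Bhlhe40*, *Fam162a*, *Mxi1* and *Hif1an* were at -1.58, -1.17, -1.45 and -0.68.

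*Car9* (chr4:43506966-43513729, plus strand) gave the widest value, -3.43 ± 1.45 (edgeR, adjusted p = 0.404). It had 11.2, 1.15 and 2.40 CPM in KP, 10.8, 6.00 and 44.2 CPM in KP-PPARαΔ13, in KPG1 9.20, 14 and 2.78 CPM, and 0.682, 5.73 and 3.48 CPM in KPG1-PPARαΔ13. KP-PPARαΔ13 replicate 3 was far above any other tumor, and the interaction without it was -2.16 (edgeR, adjusted p = 0.571), against -3.74 without replicate 1. With sex as a covariate it was -0.88 (edgeR, adjusted p = 0.997), so that this value depends on how sex is treated.

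In the glycolytic list 18 of 20 genes had an interaction below 0, with a median of -0.84, against 7979 of all 16527 genes. An unadjusted p under 0.05 was reached by 7 of the 20, against 11.8% of all genes. *Ldha* was at -1.18 ± 0.36 (edgeR, adjusted p = 0.348) and *Slc2a1* at -1.51 ± 0.50 (edgeR, adjusted p = 0.351). They were at -1.06 and -1.34 without KP-PPARαΔ13 replicate 1. *Slc2a1* is itself the gene floxed in KPG1. All 10 VEGF and angiopoietin genes were below 0, with a median of -0.74, and 0 had an unadjusted p under 0.05. Of the 25 further targets 17 were below 0, and 3 lower and 1 higher had an unadjusted p under 0.05. Of the 12 regulators 6 were below 0, and the 1 past that level lay above 0.

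Averaged over both genotypes, doxycycline gave 0 of 32 genes past the adjusted threshold in edgeR and DESeq2, where 0.0182% of all genes passed in edgeR and 1.73% in DESeq2. With an unadjusted p under 0.05 there were 4 of 32, against 10.1% of all genes. *Ankrd37*, a HIF-1 target of unclear function, was -0.88 ± 0.37 (edgeR, adjusted p = 0.456), with a value of -0.35 without KP replicate 1, which had 96.1 CPM against 22.2 and 23.3 CPM in its group. *Egln2*, the PHD1 gene, was -0.28 ± 0.12 (edgeR, adjusted p = 0.483). *Ddit4* was 0.34 ± 0.14 (edgeR, adjusted p = 0.456) and *Higd1a*, a mitochondrial supercomplex gene, 0.43 ± 0.19 (edgeR, adjusted p = 0.467). *Higd1a* had 47.6, 45.8 and 39.6 CPM in KP, 74.9, 69.1 and 41.5 CPM in KP-PPARαΔ13, in KPG1 32.9, 56.6 and 42.0 CPM, and 68.3, 49.3 and 54.5 CPM in KPG1-PPARαΔ13, so the diets overlapped in both genotypes. The median of the 32 genes was 0.06, with 19 above 0, and changed sign with the tumor left out, from -0.06 to 0.13. All 6 AT2 and all 7 endothelial markers were below 0, with medians of -0.71 and -0.28. The erythroid markers had 4 of 5 above 0, all 4 with an unadjusted p under 0.05, a median of 1.06 and *Hba-a2* at 4.62 ± 0.48 (edgeR, adjusted p = 0.00429), and 5 of 6 fibroblast markers were above 0 with a median of 0.32. The part of these markers was not tested. In the glycolytic list 18 of 20 were above 0 and 4 had an unadjusted p under 0.05, *Eno1* leading with 0.62 ± 0.20 (edgeR, adjusted p = 0.344). Among the further targets *Stc1* led with 1.08 ± 0.34 (edgeR, adjusted p = 0.344). Without KP-PPARαΔ13 replicate 1, *Ankrd37*, *Egln2*, *Ddit4* and *Higd1a* were at -0.83, -0.24, 0.27 and 0.35, and *Eno1* and *Stc1* at 0.54 and 0.86.

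The floxed genotype on a regular diet was examined in KPG1 against KP, where the genotypes also differ in sex. None of the 32 genes passed in edgeR, where 0.0363% of all genes did, and none in DESeq2, against 0.321%. With an unadjusted p under 0.05 there were 3 of 32, against 6.23% of all genes. *Bnip3* (chr7:138890836-138909519, minus strand) had 122.8, 144.8 and 122.9 CPM in KP and 215.6, 218.8 and 180.1 CPM in KPG1, with no overlap. Its log2 fold change was 0.65 ± 0.24 (edgeR, adjusted p = 0.785). *Bnip3l*, the NIX mitophagy receptor gene, had 197.5, 150.01 and 175.4 CPM in KP and 220.8, 260.2 and 219.4 CPM in KPG1 (log2 fold change 0.42 ± 0.17; edgeR, adjusted p = 0.787). Both mitophagy genes were thus higher in every KPG1 tumor than in every KP tumor. *Jmjd6*, a lysyl hydroxylase gene that acts on nuclear proteins, had 51.3, 56.6 and 42.9 CPM in KP and 28.04, 37.4 and 37.9 CPM in KPG1 (log2 fold change -0.54 ± 0.21; edgeR, adjusted p = 0.785). With sex as a covariate, which the doxycycline groups make possible, *Bnip3*, *Bnip3l* and *Jmjd6* were at 0.51, 0.55 and -0.32.

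Together with *Hif1an*, which was higher in KPG1, 4 of the 32 genes did not overlap between KP and KPG1, against 9.95% of all genes. The median log2 fold change of the 32 was 0.17, with 21 above 0, and it was 0.36, with 29 above 0, without KP replicate 1 and 0.10 without KP replicate 2. The 6 AT2 markers were above 0 as well and the 5 leukocyte markers tested below 0, with medians of 0.53 and -0.50. *Hba-a2* was lower in KPG1 (log2 fold change -5.99 ± 0.74; edgeR, adjusted p = 0.0248), while the other 4 erythroid markers were above 0. The part of these markers was not tested. Of the glycolytic targets 16 of 20 were above 0. *Ldha* had 760.4, 672.7 and 1002 CPM in KP and 1390, 1817 and 1154 CPM in KPG1 (log2 fold change 0.84 ± 0.26; edgeR, adjusted p = 0.785). *Aldoa*, an aldolase gene, was 0.58 ± 0.22 higher (edgeR, adjusted p = 0.785). *Ppp1r3c* was 1.13 ± 0.36 higher (edgeR, adjusted p = 0.785) and led the further targets, of which 12 of 25 were above 0. The regulators had 5 of 12 above 0 and the VEGF and angiopoietin genes 6 of 10.

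In doxycycline-fed tumors, KPG1-PPARαΔ13 against those labelled KP-PPARαΔ13, 0 of 32 genes passed in edgeR, where 0.0303% of all genes did, and 0 in DESeq2, against 0.968%. With an unadjusted p under 0.05 there were 3 of 32, all lower, against 9.69% of all genes. The median log2 fold change was -0.29, with 24 of 32 below 0. *Bhlhe40* was -1.07 ± 0.32 (edgeR, adjusted p = 0.462), with no overlap between 368.3 to 466.0 CPM and 162.3 to 229.8 CPM. *Vegfa* (chr17:46016993-46032369, minus strand) had 534.0, 454.6 and 606.5 CPM in KP-PPARαΔ13, above all 3 KPG1-PPARαΔ13 tumors, and a log2 fold change of -0.77 ± 0.30 (edgeR, adjusted p = 0.499). *Car9* was -2.62 ± 1.06 (edgeR, adjusted p = 0.499), and -1.34 without KP-PPARαΔ13 replicate 3 (edgeR, adjusted p = 0.673). Without KP-PPARαΔ13 replicate 1, *Bhlhe40*, *Vegfa* and *Car9* were at -1.14, -0.76 and -2.93.

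*Lox* was the other gene without overlap, so that there were 4 of 32, all lower, against 17.6% of all genes. Without KP-PPARαΔ13 replicate 3 there were 12 (37.5%), against 32.1% of all genes, and without replicate 1 there were 5 (15.6%), against 26.9%. Of the glycolytic targets 18 of 20 were below 0, and *Slc2a1* led with -1.51 ± 0.36 (edgeR, adjusted p = 0.462; DESeq2, adjusted p = 0.0125). It was the single gene of this list that DESeq2 called, and it is itself the gene floxed in KPG1-PPARαΔ13. *Loxl2* and *Stc1*, the leading further targets, were at -1.95 ± 0.57 (edgeR, adjusted p = 0.462) and -1.44 ± 0.49 (edgeR, adjusted p = 0.476). Of the 25 further targets tested 17 were below 0. At an unadjusted p under 0.05 there were 3 lower and 3 higher, against 9.69% of all genes. All 10 VEGF and angiopoietin genes were below 0, with a median of -0.68 and *Pgf* in the lead at -1.45 ± 0.53 (edgeR, adjusted p = 0.492). When KP-PPARαΔ13 replicate 1 was left out, *Slc2a1*, *Loxl2*, *Stc1* and *Pgf* were at -1.35, -1.83, -1.003 and -1.40. All 7 endothelial, all 5 AT1 and all 6 fibroblast markers were below 0 as well, with medians of -0.85, -0.87 and -1.25. The 5 leukocyte markers tested were below 0 and 4 of 5 club and ciliated cell markers above 0, with medians of -0.18 and 0.99. The part of these markers was not tested. Of the 12 regulators 6 were below 0 and 3 had an unadjusted p under 0.05, 2 higher and 1 lower, against 9.69% of all genes.

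Averaged over both diets, the *Slc2a1* floxed genotype gave 0 of 32 genes past the adjusted threshold in edgeR and DESeq2, where 0.0484% of all genes passed in edgeR and 0.236% in DESeq2. With an unadjusted p under 0.05 there were 2 of 32, against 4.53% of all genes. *Bnip3l* was 0.33 ± 0.12 higher (edgeR, adjusted p = 0.976), *Jmjd6* was at -0.35 ± 0.15 (edgeR, adjusted p = 0.976) and *Vegfa* at -0.43 ± 0.21 (edgeR, adjusted p = 0.976), or -0.21 without KP replicate 1. They were at 0.32, -0.34 and -0.43 without KP-PPARαΔ13 replicate 1. The median of the 32 genes was -0.07, with 18 below 0, and lay between -0.15 and 0.03 when any 1 tumor was left out. All 7 endothelial, all 5 AT1 and the 5 leukocyte markers tested were below 0, with medians of -0.44, -0.32 and -0.51. All 5 club and ciliated cell markers were above 0, with a median of 0.62, and the part of these markers was not tested. Of the other lists, 11 of 20 glycolytic targets, 14 of 25 further targets, 9 of 10 VEGF and angiopoietin genes and 6 of 12 regulators were below 0. The comparisons share groups: each group enters 2 of the 4 pairwise comparisons, and the interaction and the averages use all 12 tumors, so their values do not support each other.

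*Slc2a1* ranged from 23.7 to 152.5 CPM across the tumors, with all KP-PPARαΔ13 tumors (108.1 CPM or more) above all others (64.0 CPM or less). Its alleles are floxed in KPG1 and KPG1-PPARαΔ13, so over all tumors a relation cannot be told apart from group differences. Each of the 32 genes was related to it over the 12 tumors, on log2 CPM. The p-values came from 100000 permutations and were adjusted over the 32. The correlation was positive for 24 genes, 5 had an unadjusted p under 0.05 by r, against 13.8% of all genes tested, and 0 passed after adjustment. *Ddit4* came first, with Pearson's r = 0.678 (permutation p = 0.0145, adjusted p = 0.254) and Spearman's rho = 0.51 (permutation p = 0.0934, adjusted p = 0.445). Averaged by mouse its r was 0.76 over 9 mice, as deviations from the group means it was 0.3, and without the 2 tumors farthest from the median of *Slc2a1*, 1 of KP-PPARαΔ13 and 1 of KPG1-PPARαΔ13, it was 0.732. *Fam162a* had r = 0.663 (permutation p = 0.0186, adjusted p = 0.254) and rho = 0.483 (permutation p = 0.116, adjusted p = 0.445), and r = 0.538 without those 2 tumors. *Car9* had r = 0.617 (permutation p = 0.0318, adjusted p = 0.254), rho = 0.566 (permutation p = 0.0582, adjusted p = 0.445) and r = 0.48 without them, and as deviations *Fam162a* and *Car9* were at r = 0.504 and 0.413. *P4ha2* had r = 0.634 (permutation p = 0.0262, adjusted p = 0.254) and rho = 0.545 (permutation p = 0.0689, adjusted p = 0.445), and r = 0.393 without them. *Bhlhe40* had r = 0.6 (permutation p = 0.0401, adjusted p = 0.257) and rho = 0.594 (permutation p = 0.0444, adjusted p = 0.445), and r = 0.48 without them. As deviations from the group means *P4ha2* was at r = 0.415 and *Bhlhe40* at 0.349.

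Within groups another gene came first. As deviations from the group means, *Hif1an* had r = 0.86 (permutation p = 0.00036, adjusted p = 0.0115) and rho = 0.86 (permutation p = 0.00073, adjusted p = 0.0234) with *Slc2a1*, the single gene of the 32 that passed by r. By rho *Ero1l* passed as well, with rho = 0.818 (permutation p = 0.00174, adjusted p = 0.0278) and r = 0.779 (permutation p = 0.00344, adjusted p = 0.055). At an unadjusted p under 0.05 by r these deviations gave 4 of the 32 genes, against 11.2% of all genes tested, so the set was near the background. The 3 deviations of a group sum to 0, so these points are not independent and the p-value is too small. The levels of *Hif1an* themselves gave r = 0.547 over the 12 tumors, 0.397 by mouse and 0.254 without the 2 farthest tumors. Those of *Ero1l* gave r = 0.498, 0.449 and 0.127 in the same order.

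Endothelial cells express *Epas1* strongly, so the same relations were computed with the log2 summed CPM of the 7 endothelial markers, after the data had been seen. The other marker sums were not related to the genes, so whether a relation is particular to endothelial markers was not tested. KP-PPARαΔ13 replicate 3, the tumor with the highest endothelial sum, also had the highest AT1 sum, 2733 CPM. *Epas1* had the highest value, r = 0.809 (permutation p = 0.00167, adjusted p = 0.0534) and rho = 0.825 (permutation p = 0.00163, adjusted p = 0.0522) over the 12 tumors. Averaged by mouse r was 0.922 (exact permutation p = 0.000656, adjusted p = 0.021), and without KP-PPARαΔ13 replicate 3 and KP replicate 1 it was 0.656 (permutation p = 0.0446, adjusted p = 0.418). *Arnt* had a positive value as well, r = 0.723 (permutation p = 0.00811, adjusted p = 0.0898) and rho = 0.72 (permutation p = 0.0106, adjusted p = 0.115). *Higd1a* ran the other way, with r = -0.718 (permutation p = 0.00915, adjusted p = 0.0898) and rho = -0.72 (permutation p = 0.0108, adjusted p = 0.115). So did *Bnip3*, with r = -0.622 (permutation p = 0.032, adjusted p = 0.128) and rho = -0.636 (permutation p = 0.0294, adjusted p = 0.236). *Hif1a* had r = -0.509 (permutation p = 0.0936, adjusted p = 0.272) and rho = -0.559 (permutation p = 0.0631, adjusted p = 0.252). For *Vegfa* r was 0.429 (permutation p = 0.163, adjusted p = 0.37) and rho 0.336 (permutation p = 0.285, adjusted p = 0.412). Over the 12 tumors 10 of the 32 genes had an unadjusted p under 0.05 by r, against 10.6% of all genes tested, and 0 passed after adjustment. Besides *Epas1*, *Arnt*, *Higd1a* and *Bnip3* they were *Egln3* (r = -0.695), *Pdk1* (-0.685), *Plod2* (-0.655), *Hif3a* (-0.594), *Egln1* (-0.589) and *Plod1* (0.656). As deviations from the group means 11 passed by r, with *Bnip3* at r = -0.885 (permutation p = 0.00032, adjusted p = 0.0102), and 0 by rho, where the smallest adjusted p was 0.065. These p-values are again too small, since the deviations of a group sum to 0. At an unadjusted p under 0.05 by r these deviations gave 13 of the 32 genes, against 16.4% of all genes. By mouse *Epas1* passed by r, and *Arnt* (rho = 0.883) and *Higd1a* (rho = -0.883) by rho, each with an adjusted p of 0.0492 from exact permutation. Without the 2 farthest tumors r was 0.595 for *Arnt*, -0.791 for *Higd1a*, -0.291 for *Bnip3* and -0.295 for *Hif1a*, so the values of *Bnip3* and *Hif1a* rest on those tumors.

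**Figure D4:**
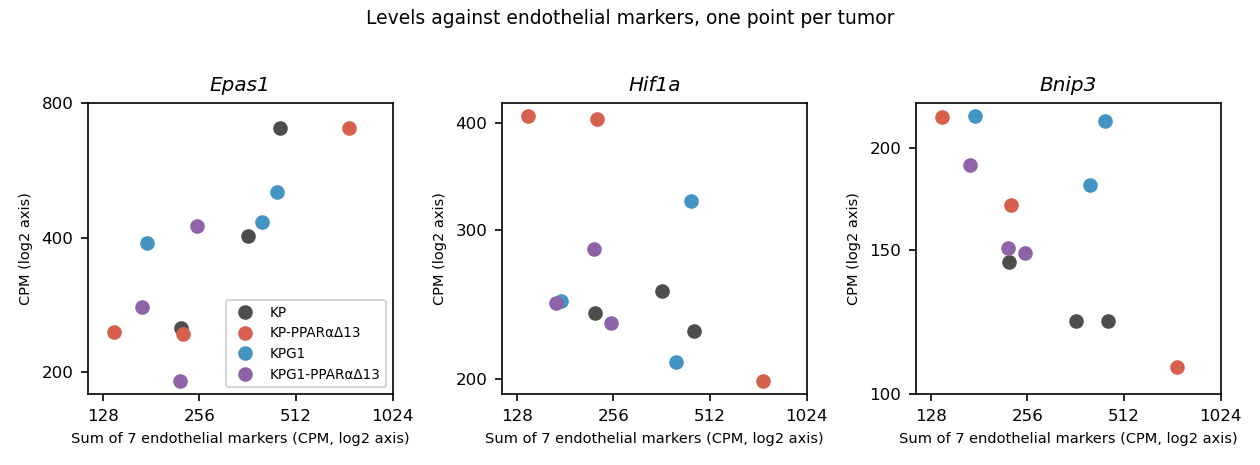
Each point is 1 tumor, colored by group, with the summed CPM of 7 endothelial markers on the x axis and the CPM of the gene on the y axis, both on log2 scales. *Epas1* is higher where the markers are higher (r = 0.809), and KP-PPARαΔ13 replicate 3, at 746.6 CPM of markers, has the lowest *Hif1a* and *Bnip3* values.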

How the data were processed

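The authors cut adapters from single-end reads (cutadapt), placed the reads on mm10 (HISAT2), counted them (featureCounts 1.4.4, per the submitters' processing notes) and deposited unnormalized counts per gene for each tumor and as a combined table, equal for all 12 tumors. The annotation used for counting is not given in the sources used here. Deposited log2 values were not used, and 0 columns matched no sample. The table lists 37 mitochondrial genes, all at 0.

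Counts were analysed with edgeR 4.0.16 in R 4.3.3 (TMM, filterByExpr by group, glmQLFit, glmQLFTest, 8 residual degrees of freedom). Standard errors are the log2 fold change over the square root of F. The study's methods used limma voom, run here as an alternative with DESeq2 1.42.0, limma 3.58.1 and the other settings of the closing section. CPM are TMM-scaled, and relations used log2 CPM with a prior count of 2 (scipy 1.17.1). The fits were checked on simulated data, with results not given here. Positions and exon lengths come from GENCODE M21, which held 96.4% of the gene identifiers. Pseudogenes were matched with BLAST+ 2.17.0 at 95% identity over 50% of their length. Promoters came from RefSeq, where 6 of the 32 genes had no entry used here.

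The 32 genes, the lists and the marker sets were chosen with earlier results of these data known. Genes named in a comparison are those of the 32 with an unadjusted p under 0.05, or the 3 with the smallest p, and up to 3 with the smallest p per other list. Genes named for not overlapping or for their spread, and *Ldha* levels, were chosen after their values were seen. Same replicate numbers do not pair the tumors.

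One allele that all mice shared is not reported here.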

Additional observations from a re-analysis of the deposited data

How the results depend on the processing

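No alternative called any of the 32 genes in any comparison (151 counts, each 0), and the 24 log2 fold changes chosen by their p kept their direction in all 514 refits, which did not cover every other fold change given. A kept direction is likely for genes chosen by p in the same data, so it is no independent support. Some refits of a pairwise comparison left out a tumor of another group, which leaves the compared tumors unchanged. Counts over all genes moved more. In the order KP-PPARαΔ13 against KP, KPG1-PPARαΔ13 against KPG1, KPG1 against KP, KPG1-PPARαΔ13 against KP-PPARαΔ13, interaction, doxycycline average and genotype average, edgeR called 1, 1, 6, 5, 0, 3 and 8 genes, and DESeq2 called 372, 197, 53, 160, 286, 286 and 39. For KP-PPARαΔ13 against KP, the counts were 2 without the low-count filter, 13 in limma voom with the mouse as a random block, and 0 with the compared groups alone, with sex as a covariate, with each mouse's tumors summed and with the replicate block. For KPG1-PPARαΔ13 against KPG1 they were 0 in limma voom, 25 there with the mouse block, 0 with the compared groups alone, 0 by mouse and 2 with the replicate block. For KPG1 against KP they were 10 with the mouse block, 10 with the compared groups alone, and 2 with a mean of at least 20 CPM, with sex and by mouse. For KPG1-PPARαΔ13 against KP-PPARαΔ13 they were 8 with the mouse block, 1 at 20 CPM, 2 with sex, 2 by mouse and 3 with the replicate block. The doxycycline average had 5 without the filter, 3 by mouse and 49 with the mouse block, whose estimated correlation between tumors of a mouse was -0.389, and the genotype average 1 at 20 CPM, 3 by mouse and 5 with the replicate block. The causes were not tested.

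The replicate block changed no call among the 32 genes. Tumors of the same number did not deviate together: in 2 of 18 pairs the correlation of deviations was over 0.1 (range -0.19 to 0.127), and 1 of 12 tumors correlated best with its own number.

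Leaving out 1 tumor gave 0 to 1, 0 to 2, 2 to 6, 2 to 10, 0 to 0, 2 to 13 and 6 to 11 genes called, in the order above, and 3 to 13, 8 to 13, 4 to 9 and 5 to 12 of the 32 genes not overlapping in the pairwise comparisons, beside 19.1 to 27.9%, 29.3 to 35.7%, 15.99 to 23.5% and 24.1 to 32.1% of all genes. As deviations from group means 1 gene passed by r and 2 by rho in relation to *Slc2a1*, against 0 over tumors. In relation to the endothelial markers 11 passed by r and 0 by rho as deviations, and 1 by r and 2 by rho by mouse, against 0 over tumors. The p-values of the deviations are too small in both relations, because the deviations of a group sum to 0.

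There were 3 tumors per group, and the biological coefficient of variation was 0.44. Whether this spread between tumors limits single genes more than depth does was not compared.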
